A study of Macaca mulatta with 20 samples.

Results

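The comparison set the corpus luteum at the end of its life against the newly formed gland in rhesus macaques (Macaca mulatta). It comprised the 4 arrays whose titles name the very-late luteal phase and the 4 whose titles name the early luteal phase, 8 of the 20 arrays of the series. Each array held total RNA of corpus luteum tissue from female animals with normal menstrual cycles, flash frozen at laparotomy and measured on an Affymetrix rhesus array. The very-late glands were taken on days 18 to 19 after the midcycle luteinizing hormone surge, at menses, when by their labels progesterone output had already ceased and the gland was breaking down. The early glands were taken on days 3 to 5, while luteinization was under way, and serve in the study as its baseline. The remaining 12 arrays held the mid, mid-late and late stages, 4 of each. No animal received a treatment that the labels record, and ages are not given in the sources used here. The labels call the arrays biological replicates and name no animals. The p-values of genes rest on the spread between glands within a stage, pooled over all 20 arrays.

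The corpus luteum forms from the ruptured follicle and secretes progesterone, estradiol and inhibin. Its steroid cells take up cholesterol from lipoproteins or make it, the StAR protein moves it into mitochondria, a P450 with an electron-donor chain cuts its side chain, and 3-beta-hydroxysteroid dehydrogenase makes progesterone. In a cycle without pregnancy the gland first stops secreting and is then dismantled, its cells die, its matrix is remodelled, and macrophages are known to enter it and take up the debris.

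All values below are log2 RMA signals, 1 probe set per gene, given in the order of replicates 1 to 4. Differences are very-late minus early on the same log2 scale with their standard error from a limma fit to all 20 arrays, and a change was called at an adjusted p under 0.05. The median of 683 probe sets for viral genomes, 3.42, marks the level without target RNA, and 95% of them lay below 4.29. Where a stage's mean is below that level, the difference is one of signals, and no fold is given. Of 52707 probe sets, 4981 rose (9.45%) and 4852 fell (9.21%) in very-late against early glands. Among the 14132 genes, each by its brightest probe set, 1681 rose (11.9%) and 2406 fell (17.0%). Of these, 582 rose (4.12%) and 760 fell (5.38%) at least 2-fold, 202 and 186 at least 4-fold, and 20 and 19 at least 16-fold. The median difference over all genes was -0.008. The values of all 4 very-late glands lay outside those of all 4 early glands for 26.0% of genes. The largest changes and the list members picked by size had to show this to be named, so it is no separate support for them. Each list count below is to be read beside the 11.9% and 17.0% of all genes that rose and fell.

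**Figure D1:**
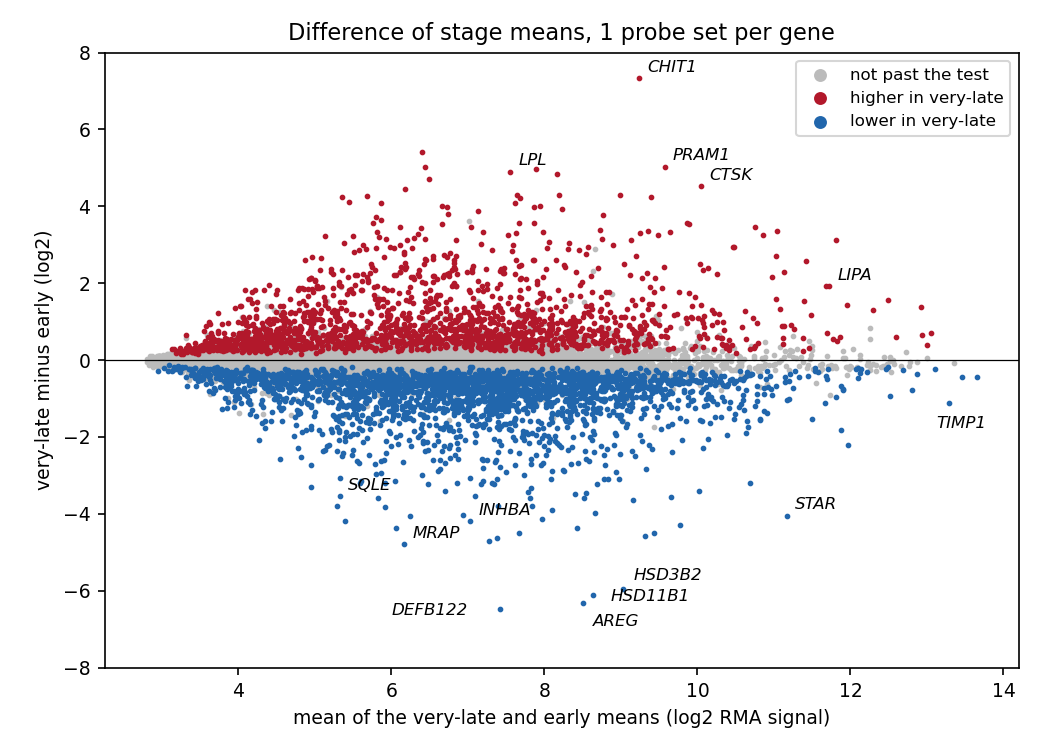
Difference of the very-late and early means (y axis, log2) against the mean of both stages (x axis, log2 RMA signal) for 14132 genes, 1 point each; red and blue points passed the test and labelled points are genes described in the text. The differences run to 7.32 upwards (CHIT1) and to -6.47 downwards (DEFB122).

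The very-late glands stood apart from every other stage and differed more among themselves. On the first principal component of all 20 arrays, which held 46.6% of the variance, they lay between 76.0 and 127 and the early glands between -25.9 and -17.9. The correlation between arrays was 0.964 to 0.988 among very-late glands, 0.984 to 0.989 among early glands, and 0.919 to 0.961 between the stages. The mean correlation with the own stage was lower in very-late glands, 0.976 against 0.986 in early glands (exact two-sided permutation test, n = 4 each, p = 0.0286, the smallest the design allows; 0.0476 adjusted over 5 array measures). The difference of 3' and 5' beta-actin probe sets was 0.0272 in very-late and 0.364 in early arrays, and array medians were 3.95 and 3.91, both with the same exact p of 0.0286. The same 3' minus 5' difference for GAPDH was 2.70 on very-late replicate 1 and 0.83 to 1.78 on the other 19 arrays. The part of these array differences in the results was not tested. Probe sets of mitochondrial transcripts split the arrays into a high and a low set, unevenly over the stages. The very-late, early and mid-late stages had 3 high arrays and 1 low array each, all 4 late arrays were high and all 4 mid arrays low. The low arrays of this comparison were very-late replicate 2 and early replicate 4. Within the 3 high arrays each of very-late and early glands, 4047 probe sets rose and 4135 fell.

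Among genes of progesterone synthesis, 7 of 9 measured members fell and 1 rose, with a median difference of -1.12. STAR, which carries cholesterol into mitochondria, read 8.11, 8.05, 9.88 and 10.55 in the very-late glands, against 13.03, 13.13, 13.27 and 13.36 in the early glands. The groups did not overlap, very-late replicates 1 and 2 were lowest, and the early glands agreed closely. STAR fell by 4.05 ± 0.38 (adjusted p = 4.01e-07), a 16.5-fold lower signal, and still stood well above the background level in each very-late gland. In tissue RNA, fewer steroid cells and less RNA per cell cannot be told apart, here and in all results that follow.

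HSD3B2, the enzyme that makes progesterone from pregnenolone, read 5.67, 5.76, 6.53 and 6.23 in very-late glands and 11.85, 11.93, 12.09 and 12.13 in early glands. It fell by 5.95 ± 0.37 (adjusted p = 4.74e-09), 61.8-fold, and all 4 very-late glands were close to each other. FDXR, the reductase that passes electrons towards the side-chain cleaving P450, read 7.04, 5.39, 7.42 and 7.35 in very-late and 10.09, 10.55, 10.65 and 9.81 in early glands and fell by 3.47 ± 0.33 (adjusted p = 4.62e-07). FDX1, the ferredoxin that takes those electrons on, fell by 1.12 ± 0.15 (adjusted p = 2.54e-05). NR5A2, a nuclear receptor that drives steroid genes in granulosa and luteal cells, read 6.46, 4.34, 7.23 and 7.23 in very-late glands, with replicate 2 far the lowest, and 8.72, 9.06, 8.47 and 7.89 in early glands. It fell by 2.22 ± 0.43 (adjusted p = 0.00104, and 0.0558 with the 8 arrays fitted alone), and its relative NR5A1 by 0.73 ± 0.15 (adjusted p = 0.00122). STARD3, a cholesterol carrier of late endosomes, was the 1 member that rose, by 0.29 ± 0.091 (adjusted p = 0.0295). That call was lost on leaving out any of very-late replicates 1 and 2 and early replicates 1, 2 and 4, when 0 members rose. TSPO, an outer mitochondrial membrane protein, differed by -0.18 (adjusted p = 0.672). POR, the electron donor of microsomal P450s, is uncertain: its brightest probe set fell by 1.07 ± 0.21 (adjusted p = 0.00116), while the other 3 of its 4 probe sets rose. CYP11A1, the side-chain cleaving P450 itself, and LHCGR, the luteinizing hormone receptor, have no value here.

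Enzymes of androgen and estrogen synthesis fell in 5 of 7 measured members, and none rose. CYP19A1, the aromatase that makes estradiol, read 5.79, 5.90, 5.99 and 7.29 in very-late glands and 9.28, 9.94, 9.10 and 8.60 in early glands. Replicate 4 was the highest very-late gland, yet lay below every early gland, and the stage difference was a fall by 2.99 ± 0.47 (adjusted p = 0.000129). HSD17B7, which acts in both estradiol and cholesterol synthesis, fell by 1.70 ± 0.21, and CYB5A, the cytochrome b5 that aids the lyase step of CYP17A1, by 1.59 ± 0.16 (adjusted p = 8.49e-06 and 8.05e-07). CYP17A1, which makes androgens in theca-derived cells, did not pass the test. It read 5.84, 4.52, 7.40 and 9.12 in very-late glands and 7.74, 7.94, 6.22 and 6.43 in early glands. The very-late glands spread on both sides of the early ones, with replicate 2 lowest and replicate 4 highest of all 8, and the difference of -0.36 had an adjusted p of 0.795 and a 95% interval of -1.75 to 1.03.

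Of 9 measured genes of glucocorticoid activation and response, 3 fell and none rose. HSD11B1, which regenerates active glucocorticoid from its inert form, showed one of the largest falls of all genes. It read 5.30, 6.38, 4.88 and 5.75 in very-late glands and 11.65, 11.89, 11.40 and 11.87 in early glands. The highest very-late gland lay far below the lowest early one, and the fall was 6.12 ± 0.32 (adjusted p = 5.84e-10), 69.6-fold. TSC22D3, a gene induced by glucocorticoids, fell by 0.44 ± 0.15 (adjusted p = 0.0447). Without very-late replicate 1 or 2 or early replicate 1 or 2 the list held 2 falls. MRAP, which is not on that list and carries the corticotropin receptor to the cell surface, read 3.81, 3.37, 3.69 and 4.22 in very-late glands, near background, and 8.47, 8.59, 8.37 and 8.81 in early glands (a fall by 4.79 ± 0.22, adjusted p = 1.65e-10). CYP11B1, named for the last step of cortisol synthesis, read 3.56, 3.63, 3.59 and 4.39 in very-late and 5.63, 5.25, 7.93 and 8.59 in early glands. The early glands fell into a low and a high pair, and the adjusted p was 0.0109, against 0.0579 within the 3 arrays a stage with high mitochondrial signal. The glucocorticoid receptor gene NR3C1 differed by 0.071 (adjusted p = 0.836). CYP3A5, a P450 of drug and steroid metabolism, read 7.15, 6.38, 7.18 and 8.03 in very-late glands and 11.54, 11.83, 11.39 and 11.96 in early glands, a fall by 4.50 ± 0.30 (adjusted p = 8.14e-09) shared by its 3 probe sets. HSD3B2, CYP3A5 and CYP11B1 belong to families with close copies whose transcripts may bind the same probes, which was not tested.

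**Figure D2:**
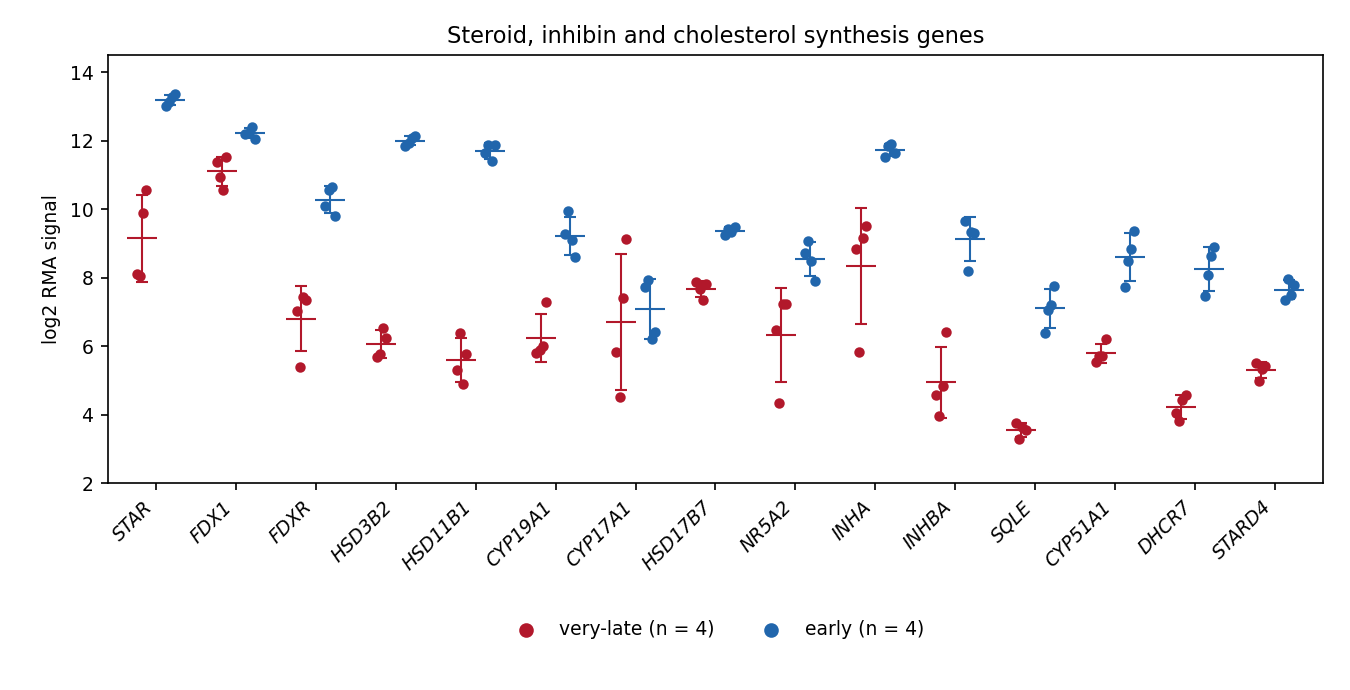
Log2 RMA signal (y axis) of 15 genes of steroid, inhibin and cholesterol synthesis in the 4 very-late glands (red, left of each pair) and the 4 early glands (blue, right); points are arrays, bars mean and SD. The 2 groups are apart for 14 of the 15 genes, which was a condition for naming list members. CYP17A1 was named whatever its result, and its very-late glands run from 4.52 to 9.12 across the early range.

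Genes for making cholesterol fell in 10 of 14 measured members and rose in none, with a median difference of -1.89. DHCR7, which catalyses the last step, read 4.06, 3.80, 4.42 and 4.58 in very-late glands and 7.46, 8.07, 8.63 and 8.90 in early glands. No very-late gland came near the lowest early one, and the fall was 4.05 ± 0.43 (adjusted p = 1.77e-06), with the very-late mean near background. SQLE, the squalene oxidase that commits the pathway to sterols, read 3.75, 3.27, 3.63 and 3.54 in very-late glands, at the background level, and 6.38, 7.06, 7.21 and 7.74 in early glands, a fall by 3.55 ± 0.28. TM7SF2, a sterol reductase, fell by 3.90 ± 0.35, EBP, a sterol isomerase, by 2.89 ± 0.28, CYP51A1, the lanosterol demethylase, by 2.81 ± 0.29, and IDI1, the isopentenyl diphosphate isomerase, by 2.11 ± 0.25 (adjusted p from 7.26e-08 for SQLE to 7.41e-06 for IDI1 over these 6 enzymes). FDPS, which makes farnesyl diphosphate, and INSIG1, which holds the sterol sensor in the endoplasmic reticulum, differed by -0.11 and 0.96 and did not pass the test. The sterol-responsive transcription factor SREBF2 fell by 1.25 ± 0.10 and its escort SCAP by 1.65 ± 0.18 (adjusted p = 1.06e-07 and 2.23e-06).

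Of 8 measured genes of lipoprotein uptake and lysosomal cholesterol release, 4 rose and 3 fell. CD36, a scavenger receptor for oxidised lipoproteins and fatty acids, read 10.31, 10.33, 9.32 and 9.78 in very-late glands and 6.35, 5.83, 5.69 and 5.88 in early glands and rose by 4.00 ± 0.27 (adjusted p = 9.24e-09). LIPA, the lysosomal acid lipase that frees cholesterol from its esters, read 12.69, 12.89, 12.51 and 12.63 in very-late and 10.79, 10.65, 10.94 and 10.69 in early glands. Its groups were tight and well apart, and it rose by 1.91 ± 0.14 (adjusted p = 2.22e-08). NPC2, which hands free cholesterol on inside the lysosome, rose by 1.55 ± 0.14, and MYLIP, a ubiquitin ligase, by 1.97 ± 0.15 (adjusted p = 4.01e-07 and 5.44e-08). STARD4, a cytosolic cholesterol carrier, fell by 2.35 ± 0.16 and SORL1, a sorting receptor, by 2.42 ± 0.30 (adjusted p = 1.69e-08 and 1.01e-05). NPC1, the membrane partner of NPC2, fell by 0.93 ± 0.17 (adjusted p = 0.000452).

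Of 12 measured genes of cholesterol efflux and esterification, a list that also held SREBF2 and SCAP, 6 rose and 3 fell. The falls were those of APOA1 and of SREBF2 and SCAP, given above with cholesterol synthesis. NR1H3, the oxysterol receptor LXR-alpha, read 7.52, 8.63, 7.34 and 7.91 in very-late and 5.88, 5.71, 5.56 and 5.51 in early glands and rose by 2.19 ± 0.24 (adjusted p = 2.65e-06). APOE, a carrier of cholesterol leaving macrophages, rose by 1.29 ± 0.13, PLTP, a phospholipid transfer protein, by 1.40 ± 0.13, and the transporter ABCG2 by 1.60 ± 0.23. ABCA1, the main efflux pump for free cholesterol, was near background in both stages, at 3.95, 4.15, 4.12 and 3.96 in very-late and 3.66, 3.66, 3.81 and 3.60 in early glands (a rise by 0.36 ± 0.086, adjusted p = 0.00514, and 0.0842 within the arrays of high mitochondrial signal). APOA1, the main protein of high-density lipoprotein, read 11.46, 9.73, 11.35 and 11.29 in very-late glands, with replicate 2 lowest, and 12.71, 12.83, 12.46 and 13.14 in early glands, and fell by 1.83 ± 0.29 (adjusted p = 0.000146).

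Of 16 measured genes of inhibins, activins and their binding proteins, 4 fell and 1 rose. Inhibins and activins are made by granulosa-lutein cells and act on the pituitary and within the ovary. INHA, the inhibin alpha subunit, read 8.83, 5.82, 9.16 and 9.50 in very-late glands and 11.52, 11.83, 11.91 and 11.63 in early glands. Very-late replicate 2 was far below its fellows, while the early glands agreed closely. INHA fell by 3.40 ± 0.50 and INHBA, the beta A subunit, by 4.19 ± 0.51 (adjusted p = 7.04e-05 and 9.23e-06). The activin-binding proteins FST and FSTL3 fell by 2.65 ± 0.36 and 2.90 ± 0.21 (adjusted p = 2.93e-05 and 2.01e-08). The single rise was that of the activin receptor ACVR1B, by 0.61 ± 0.14 (adjusted p = 0.00467), and without very-late replicate 2 there were 2.

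Hormone receptor genes fell in 3 of 9 and rose in none. PGR, the progesterone receptor, was close to background in both stages, with 3.40, 3.17, 3.21 and 3.25 in very-late and 3.92, 3.53, 3.72 and 3.92 in early glands, and fell by 0.52 ± 0.13 (adjusted p = 0.00903). PGRMC1, a heme-binding membrane protein, fell by 1.24 ± 0.23 with all 4 probe sets (adjusted p = 0.00069). Prostaglandin genes rose in 2 of 7, or in 1 without early replicate 2 or 4, and fell in 1, beside 11.9% and 17.0% of all genes. HPGD, the dehydrogenase that inactivates prostaglandins, read 6.59, 5.07, 5.96 and 5.98 in very-late and 9.01, 9.22, 7.14 and 8.61 in early glands. It fell by 2.60 ± 0.59 (adjusted p = 0.00358, and 0.0579 within the arrays of high mitochondrial signal). Of 3 measured genes of progesterone breakdown, the 5-beta-reductase AKR1D1 rose by 0.67 ± 0.18 and HSD17B2 fell by 0.17 ± 0.053, the fall being lost without any of very-late replicates 1, 2 and 4 and early replicates 3 and 4.

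Genes known to be switched on in the follicle around ovulation, and genes of clotting, fell in 9 of 14 measured members and rose in 2, with the lowest median of all lists, -2.44. AREG, an epidermal growth factor-like ligand that passes on the luteinizing hormone signal in the follicle, read 5.11, 4.95, 5.84 and 5.48 in very-late glands and 11.73, 12.07, 11.44 and 11.40 in early glands. It fell by 6.32 ± 0.46 (adjusted p = 2.70e-08), 79.7-fold. F3, the tissue factor that starts clotting, read 5.72, 5.07, 5.83 and 5.37 in very-late and 7.64, 8.20, 9.26 and 9.13 in early glands (a fall by 3.06 ± 0.35, adjusted p = 4.16e-06). TFPI2, a protease inhibitor, fell by 3.23 ± 0.56, TNFAIP6, a hyaluronan-binding protein of the cumulus matrix, by 3.21 ± 0.42, RGS2, a regulator of G-protein signals, fell by 2.84 ± 0.40, and PTX3, a pentraxin of the same matrix, by 2.72 ± 0.45. The hyaluronan receptor CD44 and the anticoagulant PROS1 rose by 1.07 ± 0.20 and 1.28 ± 0.24 (adjusted p = 0.000714 and 0.000794).

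The largest fitted fall of any gene was that of DEFB122, a beta-defensin gene, with 4.10, 4.07, 4.22 and 4.36 in very-late glands and 10.48, 10.9998, 9.86 and 11.31 in early glands. The fall was 6.47 ± 0.44 (adjusted p = 1.35e-08), from a very-late mean below the level that 95% of viral probe sets did not reach, and 2 of its 3 probe sets passed. A second beta-defensin gene, DEFB119, read 3.78, 3.98, 3.86 and 3.85 in very-late and 7.45, 8.55, 7.99 and 8.999 in early glands (a fall by 4.38 ± 0.32, adjusted p = 2.40e-08). F2RL1, a receptor cut open by proteases, fell by 4.51 ± 0.55, NANOS1, an RNA-binding repressor of translation, by 4.70 ± 0.46, DCLRE1C, the DNA repair nuclease Artemis, by 4.58 ± 0.27, and ID4, an inhibitor of helix-loop-helix transcription factors, by 4.36 ± 0.30. Arrays that do not overlap between the stages were a condition for naming these genes. Their adjusted p lay between 2.58e-09 for DCLRE1C and 1.02e-05 for F2RL1. Of the probe sets, 3 of 4 passed for ID4 and 2 of 3 for DCLRE1C. The remaining DCLRE1C probe set had means of 4.68 in very-late and 4.48 in early glands (adjusted p = 0.19). Among the 15 largest falls were also 2 genes without a name in the annotation, LOC712957 and LOC721819. AADAC, a lipid and drug esterase, was the least even of the 15: it read 3.40, 3.33, 3.22 and 3.29 in very-late glands, below background, and 10.16, 3.44, 7.25 and 9.10 in early glands. Early replicate 2 stood at background too, the second probe set of AADAC rose, and the fitted fall of 4.18 ± 0.90 (adjusted p = 0.00244, and 0.0727 with the 8 arrays fitted alone) is no bound on the change.

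The rises were led by genes of macrophages. CHIT1, the chitotriosidase secreted by activated and lipid-filled macrophages, read 12.58, 13.02, 12.98 and 13.03 in very-late glands and 6.04, 5.65, 5.26 and 5.36 in early glands. The very-late glands agreed closely, and each lay far above every early gland. CHIT1 rose by 7.32 ± 0.56 (adjusted p = 4.70e-08), 160-fold, the largest difference of all 14132 genes. Of 20 measured genes typical of lipid-laden phagocytes, 15 rose and none fell, with a median of 3.15. The mean signal of the whole list was 9.73 to 9.98 in very-late glands and 6.86 to 7.34 in early glands.

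LPL, the lipase that releases fatty acids from lipoproteins, read 9.74, 10.32, 9.81 and 10.16 in very-late glands and 5.57, 4.79, 5.37 and 4.69 in early glands and rose by 4.90 ± 0.24 (adjusted p = 3.47e-10). Of its 4 probe sets, 2 passed the test, both upwards. ADAMDEC1, a metalloprotease-like protein of macrophages and dendritic cells, read 9.08, 10.13, 8.59 and 8.61 in very-late glands and 3.61, 3.50, 4.07 and 3.60 in early glands. All early values were near background, and ADAMDEC1 rose by 5.41 ± 0.43 (adjusted p = 7.41e-08). ACP5, the tartrate-resistant acid phosphatase of osteoclasts and macrophages, rose by 4.28 ± 0.49, and SPP1, the matrix and cytokine protein osteopontin, by 2.42 ± 0.62 (adjusted p = 4.15e-06 and 0.00903). GPNMB, TREM2, FABP5 and LGALS3, further genes of lipid-handling macrophages, rose by 3.36 ± 0.35, 3.18 ± 0.21, 3.57 ± 0.27 and 3.12 ± 0.28. FABP4 and AXL, also on the list, differed by -0.17 and -0.51 and did not pass.

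General macrophage markers rose in 12 of 18 measured members and fell in none, with a median of 1.98. Their mean signal was 8.57 to 9.05 in very-late glands and 6.67 to 7.03 in early glands. CD68, a lysosomal glycoprotein of macrophages, read 10.77, 11.49, 10.49 and 10.84 in very-late and 7.64, 7.60, 7.48 and 7.63 in early glands. Each very-late gland lay well above the early glands, which were almost identical, and the rise was 3.31 ± 0.27 (adjusted p = 1.00e-07). CYBB, the catalytic subunit of the phagocyte oxidase, read 10.29, 11.38, 10.13 and 10.57 in very-late and 5.93, 5.45, 5.64 and 5.97 in early glands (a rise by 4.84 ± 0.33, adjusted p = 1.09e-08). TYROBP, the signalling adaptor of many myeloid receptors, rose by 2.95 ± 0.31, lysozyme (LYZ) by 3.53 ± 0.46, and PTPRC, the pan-leukocyte CD45, by 3.02 ± 0.29. The complement genes C1QA and C1QC, the mannose receptor MRC1 and the integrin ITGAM differed by -0.32, 0.091, 0.081 and 0.067 and did not pass, and CD163 has no value here.

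Several of the other large rises were of leukocyte genes. PRAM1, an adaptor of myeloid cells, read 11.92, 12.32, 11.89 and 12.21 in very-late glands and 7.47, 6.64, 7.21 and 6.91 in early glands, with both of its probe sets rising. It rose by 5.03 ± 0.25 (adjusted p = 3.44e-10). SLAMF7, a surface receptor of activated leukocytes, rose by 5.02 ± 0.28, LPXN, a leukocyte adhesion adaptor, by 4.30 ± 0.39, and BLNK, a signalling adaptor of B cells and macrophages, by 4.26 ± 0.28. PLA2G7, the macrophage enzyme that degrades platelet-activating factor, and PLA2G2D, a secreted phospholipase, rose by 4.46 ± 0.25 and 4.70 ± 0.39. The early means of BLNK, SLAMF7, PLA2G7 and PLA2G2D were 3.55, 3.93, 3.95 and 4.14. All lay below 4.29, the level under which most viral probe sets fell, so these differences start near background. The 6 genes of this paragraph had adjusted p between 3.44e-10 and 2.94e-07. That their arrays did not overlap between the stages was a condition for naming them.

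**Figure D3:**
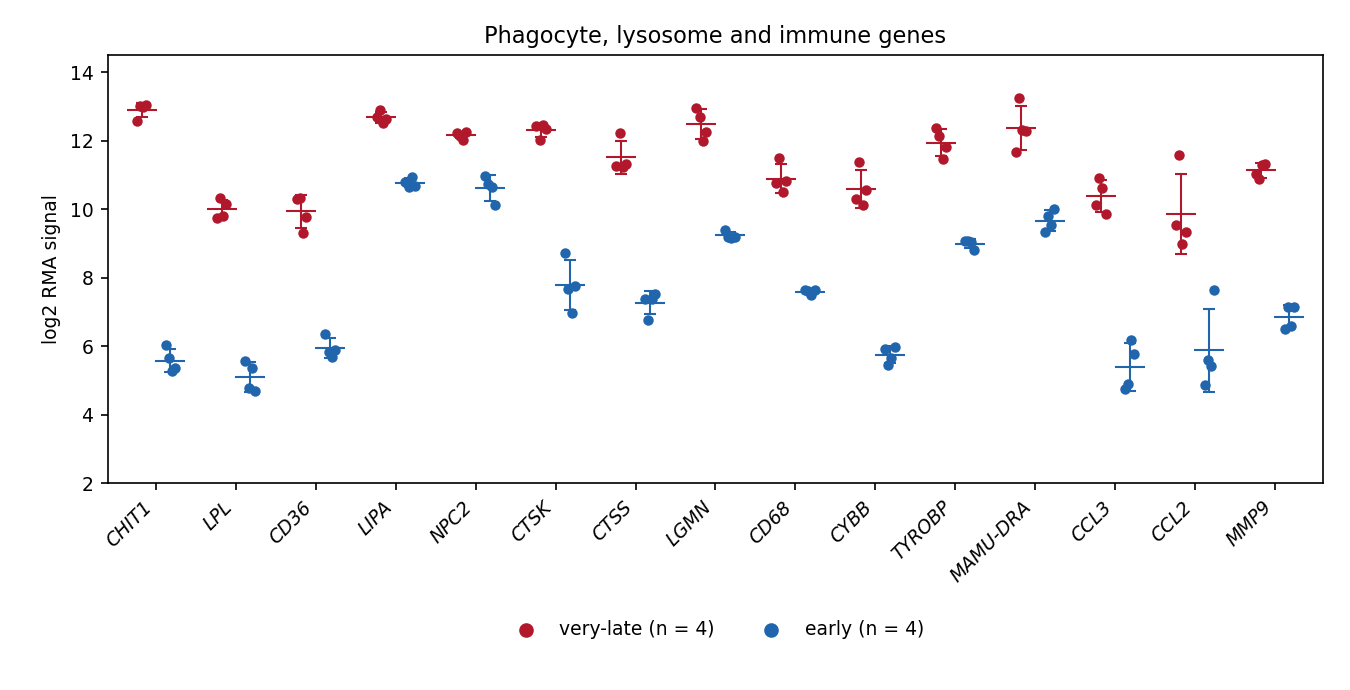
Log2 RMA signal (y axis) of 15 phagocyte, lysosome and immune genes in the 4 very-late glands (red, left of each pair) and the 4 early glands (blue, right); points are arrays, bars mean and SD. All 15 genes are higher in every very-late gland than in any early gland, which was a condition for naming them. The differences run from 1.55 for NPC2 to 7.32 for CHIT1.

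Lysosome and autophagy genes rose in 19 of 25 measured members and fell in none. CTSK, a cathepsin that cleaves collagen, read 12.43, 12.02, 12.45 and 12.34 in very-late glands and 8.73, 7.67, 6.97 and 7.77 in early glands. The very-late glands agreed closely while the early ones were spread, and the rise was 4.52 ± 0.40 (adjusted p = 2.43e-07), 23.0-fold. CTSS, the cathepsin that trims the invariant chain for antigen loading, read 11.26, 12.24, 11.23 and 11.31 in very-late glands, with replicate 2 highest, and 7.39, 6.77, 7.38 and 7.53 in early glands. CTSS rose by 4.25 ± 0.37, CTSZ, a carboxypeptidase cathepsin, by 3.56 ± 0.34, and LGMN, the asparaginyl protease that matures cathepsins, by 3.25 ± 0.23 (adjusted p = 2.21e-07, 6.50e-07 and 2.40e-08). GM2A, the activator protein for ganglioside breakdown, rose by 3.36 ± 0.52 and CTSH, an aminopeptidase cathepsin, by 2.40 ± 0.17. The autophagy genes BECN1 and MAP1LC3B differed by -0.097 and 0.20 and did not pass.

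Antigen presentation genes rose in 12 of 21 measured members and fell in 1. The class II gene MAMU-DRA read 11.68, 13.24, 12.31 and 12.30 in very-late glands and 9.34, 9.79, 9.53 and 10.01 in early glands, and rose by 2.71 ± 0.37 (adjusted p = 3.43e-05). MAMU-DQA1 rose by 3.12 ± 0.41, MAMU-DMA, which helps peptides onto class II, by 2.93 ± 0.33, MAMU-DQB1 by 2.53 ± 0.46 and MAMU-DPA by 2.42 ± 0.34. Of the class I genes MAMU-A rose by 0.80 ± 0.19 and MAMU-B by 0.64 ± 0.19, and MAMU-F fell by 0.54 ± 0.14. Genes of this locus are polymorphic and alike, so probes may bind several of them, which was not tested.

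Chemokines and their receptors rose in 11 of 24 measured members and fell in 3. The number that rose was 6 without very-late replicate 3 and 7 without early replicate 2. CCL3, a chemokine of activated macrophages, read 10.11, 10.90, 10.63 and 9.87 in very-late glands and 4.74, 4.90, 6.19 and 5.76 in early glands and rose by 4.98 ± 0.35 (adjusted p = 1.80e-08) with all 4 of its probe sets. CCL2, which draws monocytes, read 9.55, 11.60, 8.98 and 9.33 in very-late and 4.87, 5.58, 5.41 and 7.63 in early glands. The groups did not overlap, but very-late replicate 2 stood well above its fellows and early replicate 4 likewise above the other early glands. CCL2 rose by 3.99 ± 0.59 and the receptor CCR1, highest in very-late replicate 2 at 9.18, by 3.00 ± 0.41 (adjusted p = 8.10e-05 and 3.63e-05). CCL21, which guides lymphocytes and dendritic cells along lymphatic vessels, and CCL8, another monocyte chemokine, fell by 1.36 ± 0.30 and 1.17 ± 0.19 (adjusted p = 0.00278 and 0.00021). Only 1 of the 3 CCL8 probe sets passed, and on averaging them the adjusted p was 0.267. CXCL8 and CX3CR1 differed by 0.12 and 0.017 and did not pass.

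Complement genes rose in 6 of 16 and fell in 1. ITGB2, the beta chain of the leukocyte integrins and complement receptors, rose by 3.93 ± 0.27, the C5a receptor C5AR1 by 2.60 ± 0.34, factor D (CFD) by 1.98 ± 0.34, C7 by 1.93 ± 0.42 and factor B (CFB) by 1.44 ± 0.24. The CFB call was lost on averaging its probe sets (adjusted p = 0.310). CD55, which shields cells from complement, fell by 1.35 ± 0.28 (adjusted p = 0.00156, and 0.0539 with the 8 arrays fitted alone). Interferon-response genes rose in 8 of 22 and fell in none, and 5 rose without very-late replicate 2 or without early replicate 1. IFI30, a lysosomal thiol reductase of antigen-presenting cells, read 12.03, 13.19, 12.27 and 12.41 in very-late and 9.60, 8.79, 8.90 and 8.81 in early glands and rose by 3.45 ± 0.31 (adjusted p = 3.33e-07). IRF8, a transcription factor of monocytes and B cells, rose by 2.69 ± 0.32 and the antiviral gene MX2 by 1.65 ± 0.30. Other antiviral genes did not pass: ISG15 differed by 1.30, MX1 by 1.54 and IFI44 by 1.13 (adjusted p = 0.259, 0.222 and 0.226).

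Interleukin genes rose in 6 of 24 and fell in 3, beside 11.9% and 17.0% of all genes. IL1RN, the antagonist of interleukin-1, rose by 2.71 ± 0.55, the shared receptor chain IL2RG by 2.30 ± 0.26 and the interleukin-10 receptor IL10RA by 2.20 ± 0.25 (adjusted p = 0.00149, 4.61e-06 and 4.33e-06). IL6ST, the signalling chain of the interleukin-6 family receptors, read 5.16, 4.63, 5.58 and 5.54 in very-late glands and 7.93, 7.38, 8.13 and 8.75 in early glands and fell by 2.82 ± 0.27 (adjusted p = 5.93e-07). IL1RL1, the interleukin-33 receptor, fell by 2.50 ± 0.52 and LIF, a ligand of IL6ST, fell by 1.83 ± 0.39, both with widely spread early glands. With the 8 arrays fitted alone LIF had an adjusted p of 0.0559. The cytokines TNF, IL6 and IL10 stood at 3.47 ± 0.12, 3.45 ± 0.11 and 6.50 ± 0.15 in very-late glands and 3.44 ± 0.079, 3.51 ± 0.043 and 6.42 ± 0.49 in early glands (mean ± SD, n = 4 each), and none passed the test.

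Genes of cell death rose in 10 of 26 measured members and fell in 1, and without very-late replicates 1 and 2 together 6 rose. The genes that rose include both promoters and inhibitors of death. BCL2A1, a survival protein of leukocytes, read 7.20, 8.996, 6.37 and 7.34 in very-late glands and 3.14, 3.02, 3.43 and 3.35 in early glands, where it was at background. The fitted difference was 4.24 ± 0.33 upwards (adjusted p = 5.68e-08), which is no bound on the change. TNFSF10, the death ligand TRAIL, read 8.28, 7.88, 9.14 and 7.66 in very-late and 6.37, 6.29, 5.04 and 5.77 in early glands and rose by 2.37 ± 0.37 (adjusted p = 0.000122). The death receptor TNFRSF21 rose by 1.41 ± 0.23 and the BH3-only killer BCL2L11 by 1.17 ± 0.24 (adjusted p = 0.000199 and 0.00186). APAF1, the scaffold of the apoptosome, rose by 0.60 ± 0.12, the survival gene BCL2L1 by 0.76 ± 0.21, and CASP6, an executioner caspase, fell by 0.89 ± 0.13. FAS, FASLG, BAX and BAK1 differed by -0.25, 0.13, 0.20 and 0.006 and did not pass.

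Matrix metalloproteinases rose in 4 of 16 and fell in 2, beside 11.9% and 17.0% of all genes. MMP9, a gelatinase of macrophages and neutrophils, read 11.02, 10.88, 11.29 and 11.33 in very-late glands and 6.50, 7.15, 6.59 and 7.13 in early glands. Both groups were tight, and MMP9 rose by 4.29 ± 0.43 (adjusted p = 1.10e-06), 19.6-fold. MMP19 rose by 2.16 ± 0.29 and MMP14, the membrane-bound activator of MMP2, by 1.06 ± 0.18 (adjusted p = 2.84e-05 and 0.0003). MMP2, a gelatinase of stromal cells, read 9.42, 8.97, 9.99 and 9.79 in very-late and 9.64, 8.84, 8.26 and 8.61 in early glands, which overlap, and its difference of 0.70 had an adjusted p of 0.0412. That p was 0.0560 to 0.156 on leaving out very-late replicate 1, 3 or 4 or early replicate 2, 3 or 4. Without very-late replicate 1, 2 or 4 the number of falls in this family was 1. MMP1 differed by -0.997 (adjusted p = 0.0611).

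Protease inhibitors, ADAMTS proteases and plasminogen genes rose in 3 of 14, or in 1 without very-late replicate 1, and fell in 5. TIMP1, the secreted inhibitor of metalloproteinases, read 12.69, 12.60, 12.97 and 12.68 in very-late glands and 13.82, 13.85, 13.83 and 13.91 in early glands. The groups were apart and the early glands nearly identical, and TIMP1 fell by 1.12 ± 0.072 (adjusted p = 6.52e-09), though only 1 of its 3 probe sets passed. TIMP2 rose by 0.80 ± 0.21 (adjusted p = 0.0108) and TIMP3 differed by 0.53 (adjusted p = 0.271). RECK, a membrane-anchored inhibitor of metalloproteinases, fell by 1.34 ± 0.29, and the versican-cleaving proteases ADAMTS1 and ADAMTS4 fell by 2.67 ± 0.36 and 2.92 ± 0.37 (adjusted p = 2.81e-05 and 1.63e-05).

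Collagen genes fell in 6 of 16 and rose in none. COL1A1 read 9.47, 9.64, 10.51 and 9.54 in very-late glands, with replicate 3 highest, and 12.27, 10.94, 11.48 and 11.39 in early glands, with replicate 1 highest, and fell by 1.73 ± 0.24 (adjusted p = 3.66e-05). COL5A3 fell by 1.44 ± 0.13 and COL15A1, a basement membrane collagen, by 1.27 ± 0.28 (adjusted p = 0.0624 for COL15A1 with the 8 arrays fitted alone), whereas COL3A1 and the 3 collagen VI chains COL6A1, COL6A2 and COL6A3 differed by 0.071, 0.051, 0.16 and -0.10 and did not pass. Other stromal matrix genes fell in 5 of 18 (3 without very-late replicates 1 and 2 together) and rose in 2, beside 17.0% and 11.9% of all genes. THY1, a surface protein of fibroblasts, fell by 1.79 ± 0.25 and LOXL2, a collagen cross-linking oxidase, by 1.42 ± 0.16 (adjusted p = 4.83e-05 and 4.44e-06). DCN, LUM and FN1, the abundant matrix proteins decorin, lumican and fibronectin, differed by 0.61, -0.85 and 0.075 and did not pass.

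Of 18 measured endothelial markers, 3 rose and 2 fell, beside 11.9% and 17.0% of all genes. Without early replicate 2, 1 rose, and without very-late replicates 1 and 2 together 6 did. PECAM1, the endothelial adhesion molecule CD31, read 9.82, 9.70, 10.25 and 9.74 in very-late glands and 9.52, 9.67, 9.87 and 9.43 in early glands, overlapping (difference 0.25, adjusted p = 0.279). CDH5, VWF and KDR, the endothelial cadherin, von Willebrand factor and the main VEGF receptor, differed by -0.23, -0.11 and 0.19, none past the test. The mean of the whole list was 6.44 to 7.25 in very-late glands and 6.78 to 7.01 in early glands, with very-late replicate 2 lowest and replicate 3 highest of the 8. TEK, the angiopoietin receptor, rose by 1.09 ± 0.18 and LYVE1, a lymphatic endothelial receptor, fell by 1.69 ± 0.15 with all 3 probe sets (adjusted p = 0.000243 and 2.65e-07). Of 10 measured VEGF and prokineticin genes 2 rose and none fell: VEGFB rose by 1.24 ± 0.16 and the co-receptor NRP2 by 1.31 ± 0.13 (adjusted p = 1.70e-05 and 1.28e-06), and VEGFA has no value here. Of 11 angiopoietin, FGF, PDGF and endothelin genes, 4 fell and 2 rose (1 without very-late replicate 3 or 4 or early replicate 1). ANGPTL4, a lipoprotein lipase inhibitor, fell by 3.10 ± 0.52, ECE1, which activates endothelins, by 1.81 ± 0.15 and PDGFA, a ligand for pericyte precursors, by 1.59 ± 0.30.

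Pericyte and smooth muscle genes fell in 6 of 11 and rose in none (1 rose without very-late replicates 1 and 2 together). MCAM, a surface protein of mural cells, read 7.24, 7.75, 9.10 and 8.69 in very-late glands and 10.13, 9.68, 10.03 and 9.92 in early glands and fell by 1.74 ± 0.27 (adjusted p = 0.000108). TAGLN, an actin-binding protein of smooth muscle, fell by 1.57 ± 0.29, the light chain MYL9 by 1.54 ± 0.25 and the tropomyosin TPM2 by 1.23 ± 0.18. MYH11 and NOTCH3, both defining for these cells, differed by 0.091 and 0.075 and did not pass.

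Cell-cycle genes fell in 17 of 20 measured members and rose in none. CCNB1, the mitotic cyclin, read 4.53, 4.83, 3.83 and 4.37 in very-late glands and 7.08, 7.68, 7.53 and 7.02 in early glands and fell by 2.94 ± 0.23 (adjusted p = 4.91e-08). TOP2A, a topoisomerase of dividing cells, fell by 2.89 ± 0.28, CCNB2 by 2.34 ± 0.24, CENPF, a kinetochore protein, by 1.69 ± 0.25, the proliferation marker MKI67 by 1.67 ± 0.26 and TYMS, which makes thymidylate, by 1.63 ± 0.22. The replication genes MCM2 and MCM5 differed by -0.0001 and -0.17 and did not pass.

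Nuclear genes of the respiratory chain fell in 12 of 20 and rose in none, by small amounts, with a median of -0.49. NDUFV2 of complex I fell by 0.86 ± 0.11 and CYC1 of complex III by 0.82 ± 0.11 (adjusted p = 1.33e-05 and 2.41e-05). Antioxidant genes fell in 11 of 19, and 1 rose. The exception was SOD2, the mitochondrial superoxide dismutase and a known target of inflammatory signals, with 11.41, 11.85, 10.76 and 11.21 in very-late glands and 7.98, 7.69, 8.40 and 7.86 in early glands. It rose by 3.33 ± 0.23 (adjusted p = 1.35e-08), although its second probe set did not pass. MGST1 and GSTA4, glutathione transferases, fell by 2.49 ± 0.38 and 2.14 ± 0.29, the peroxiredoxin PRDX4 by 2.08 ± 0.13 and the metallothionein MT2A fell by 2.22 ± 0.31.

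Immediate-early and stress genes went both ways, 4 up and 6 down of 19. ATF3, a stress-induced repressor, read 7.63, 8.24, 7.55 and 7.17 in very-late and 5.35, 5.42, 6.02 and 5.41 in early glands and rose by 2.10 ± 0.26, and EGR2 and KLF6 rose by 1.96 ± 0.52 and 1.19 ± 0.17 (adjusted p = 1.20e-05, 0.0122 and 5.67e-05). For EGR2 the adjusted p was 0.121 within the arrays of high mitochondrial signal. FOSL2, an AP-1 subunit, fell by 2.16 ± 0.20, DDIT4, an inhibitor of mTOR, by 1.89 ± 0.32, the phosphatase DUSP1 by 1.53 ± 0.32 and the orphan receptors NR4A1 and NR4A2 by 1.75 ± 0.56 and 1.14 ± 0.23. For NR4A2 the adjusted p was 0.0510 with the 8 arrays fitted alone and 0.137 on averaging its probe sets. NR4A1 read 5.94, 5.56, 6.01 and 6.02 in very-late glands and 7.90, 7.10, 8.82 and 6.73 in early glands, which were widely spread (adjusted p = 0.0365). Its adjusted p was 0.0579 to 0.134 on leaving out any 1 very-late gland, early replicate 1 or early replicate 3.

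Markers of other cells that the tissue could hold were read beside these groups and beside the shares of all genes, 11.9% higher and 17.0% lower. T and natural killer cell genes rose in 6 of 13 and fell in 2, with list means of 6.17 to 6.41 in very-late and 6.08 to 6.31 in early glands. CD4, also carried by macrophages, rose by 1.18 ± 0.26 (adjusted p = 0.00312). Of the 6 risers it was the 1 that rose at least 2-fold, and the others rose by less. Both falls were of granzyme genes, GZMB by 1.89 ± 0.37 and GZMK by 1.51 ± 0.36 (adjusted p = 0.00108 and 0.00505). Of 8 B and plasma cell genes, 2 rose (1 without very-late replicate 2 or 4 or early replicate 3 or 4), among them the immunoglobulin joining chain JCHAIN by 1.40 ± 0.26. JCHAIN read 5.03, 5.51, 3.66 and 4.68 in very-late glands, its early mean of 3.32 was below background, and its second probe set did not pass (adjusted p = 0.278). The B-cell genes MS4A1 and CD79A differed by 0.11 and -0.0033 and did not pass. Of 12 neutrophil and mast cell genes, 2 rose (1 without any one of the 8 arrays but very-late replicates 3 and 4), the larger being the antimicrobial gene CAMP by 1.31 ± 0.16. Of 5 erythrocyte genes limma called 0, also 0 at an unadjusted p under 0.05, and HBB differed by 0.23 (adjusted p = 0.641). KRT8, a keratin of epithelial and also granulosa cells, fell by 2.63 ± 0.40 (adjusted p = 9.17e-05) as the 1 call among 10 epithelial genes, and EPCAM differed by 0.046. Of 9 follicle and oocyte genes, ZP4 rose, by 0.63 ± 0.17, a call lost without very-late replicate 2 or early replicate 4. The part of these other cells in the results was not tested. At an unadjusted p under 0.05, where limma called 0 members, the count was 1 for falls among phagocyte, lysosome and interferon genes and for rises among glucocorticoid, cholesterol synthesis and hormone receptor genes. It was 0 in the uncalled direction of the macrophage, B cell, neutrophil, follicle, VEGF, androgen, pericyte, collagen, epithelial, proliferation and respiratory chain lists.

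**Figure D4:**
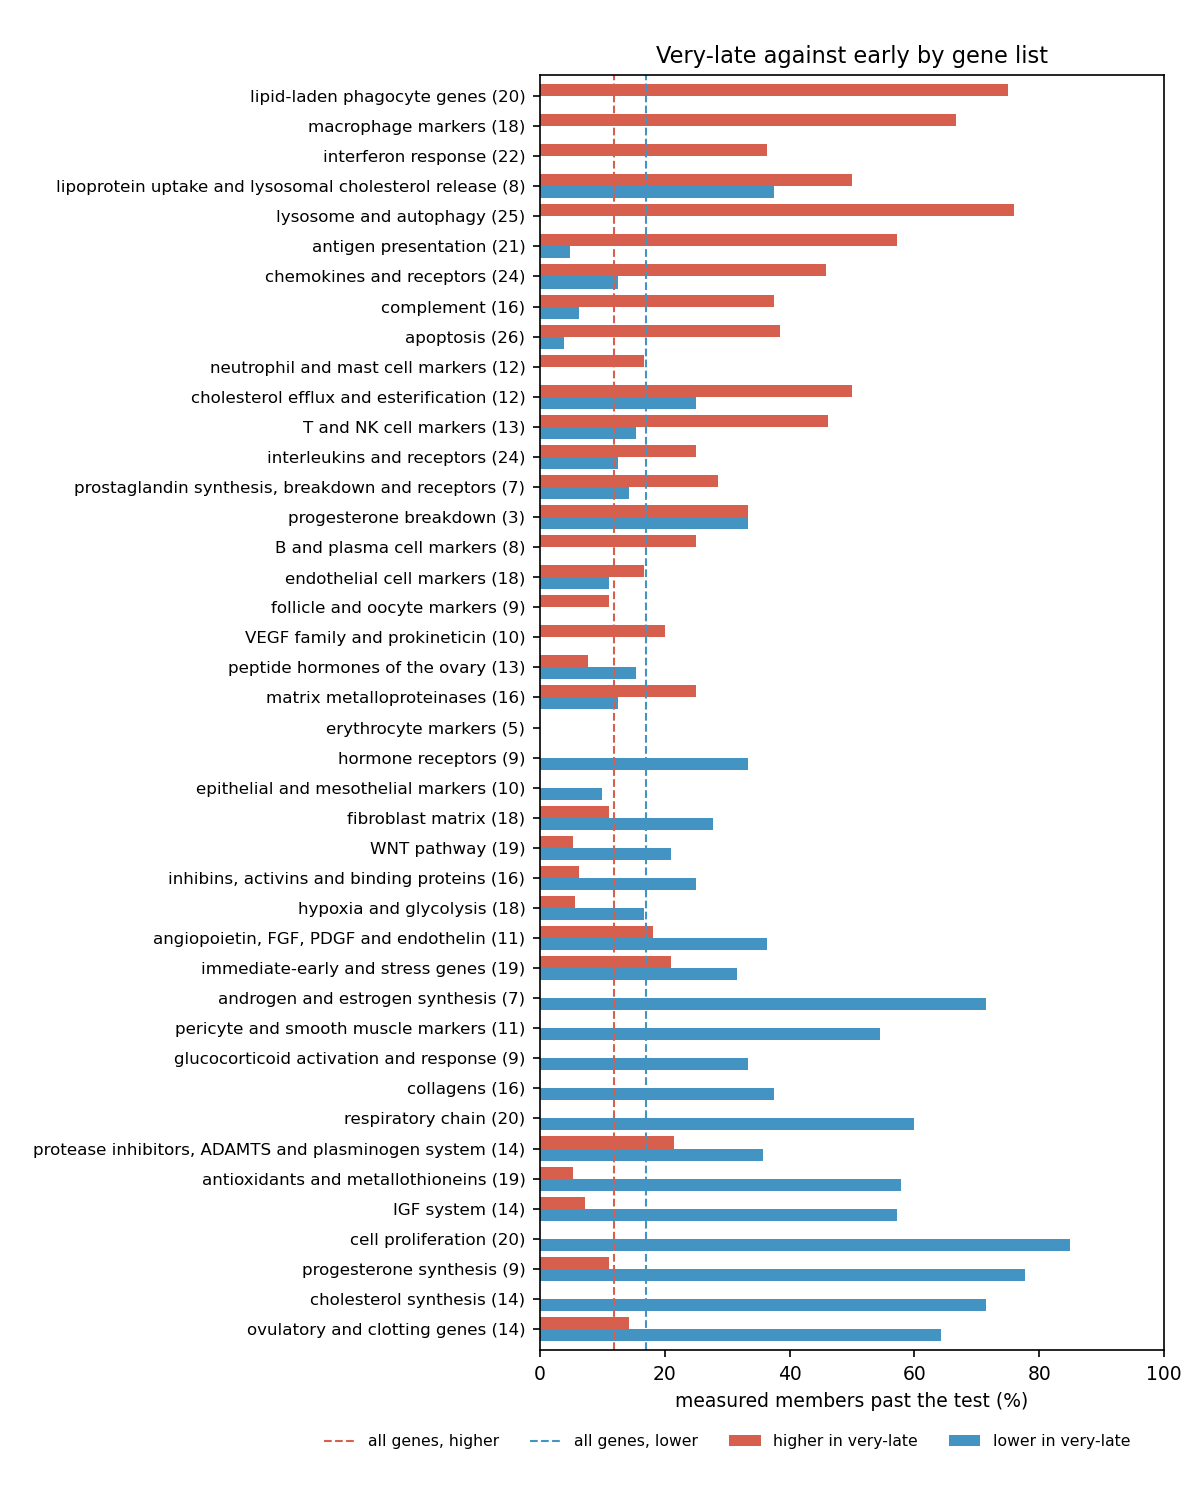
Share of each gene list's measured members (x axis, %) that rose (red) or fell (blue) in very-late against early glands, with the number measured in brackets, ordered by the list's median difference; dashed lines are the shares of all genes, 11.9% up and 17.0% down. Phagocyte, macrophage and lysosome genes stand far right in red, and ovulatory, cholesterol, progesterone and proliferation genes far right in blue.

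The intermediate stages place these differences in time. The very-late against late contrast shares its very-late arrays with the contrast above, so the values are given side by side. STAR stood at 13.19 ± 0.15 in early, 13.26 ± 0.10 in mid, 13.34 ± 0.13 in mid-late, 13.37 ± 0.062 in late and 9.15 ± 1.26 in very-late glands (mean ± SD, n = 4 each). Its early to late means lay close together: very-late minus late was -4.22 ± 0.38 (adjusted p = 4.33e-07) and very-late minus early -4.05. HSD3B2 had 11.40 ± 0.36 in mid-late and 9.35 ± 1.14 in late glands, on the way to 6.05 ± 0.41 in very-late glands. CYP19A1 was at 11.26 ± 0.84 in late glands, above its early mean of 9.23 ± 0.55, and very-late minus late was -5.02 ± 0.47 beside -2.99 for very-late minus early, which were not tested against each other.

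For other genes the very-late against late contrast did not pass. CCNB1 was at 4.85 ± 0.29 in late glands, and very-late minus late was -0.46 ± 0.23 (adjusted p = 0.227). F3, PTX3 and FSTL3 likewise differed from late glands by 0.67 ± 0.35, -0.087 ± 0.45 and -0.33 ± 0.21 (adjusted p = 0.257, 0.944 and 0.364), against -3.06, -2.72 and -2.90 from early glands. Other members of the ovulatory and clotting list did pass against late glands, where 4 of its 14 fell and 2 rose. AREG was at 11.83 ± 0.42 in mid, 11.68 ± 0.27 in mid-late and 9.98 ± 1.42 in late glands. Very-late minus late was -4.64 ± 0.46 for AREG and -2.80 ± 0.42 for TNFAIP6 (adjusted p = 1.68e-06 and 0.000146). APOE was 12.94 ± 0.31 in very-late and 12.68 ± 0.02 in late glands, a difference of 0.25 ± 0.13 (adjusted p = 0.254). CHIT1 climbed through 6.69 ± 1.31, 7.57 ± 1.18 and 8.86 ± 0.67 in mid, mid-late and late glands to 12.90 ± 0.21 in very-late glands, while LPL held 5.66 ± 0.33 in late glands and rose by 4.34 ± 0.24 from there (adjusted p = 2.86e-09). BCL2A1 and BLNK had 3.49 ± 0.18 and 3.82 ± 0.081 in late glands, and CCL2 4.82 ± 0.52, below its early mean of 5.87 ± 1.21. Of the 582 genes at least 2-fold higher than in early glands, 567 had their highest stage mean in very-late glands, and of the 760 lower genes 729 had their lowest there. Both sets were chosen by their very-late minus early difference, which favours very-late glands as the extreme, so these counts do not time the changes. Between very-late and late glands 1444 genes rose (10.2%) and 1587 fell (11.2%). Over all probe sets 3559 rose (6.75%) and 3703 fell (7.03%) in very-late against late glands, and within the arrays of high mitochondrial signal 2907 rose and 3236 fell.

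**Figure D5:**
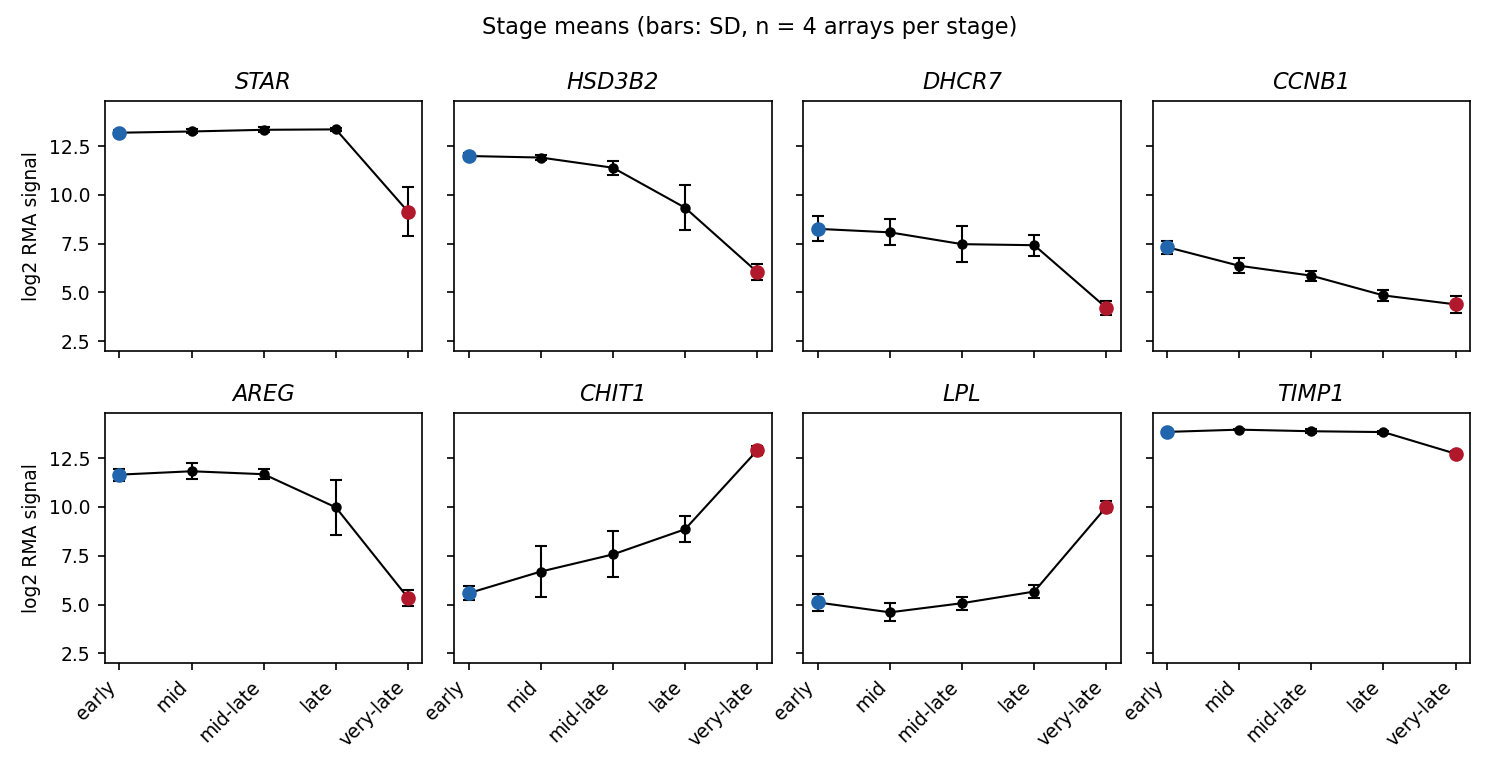
Mean log2 RMA signal (y axis, bars SD, n = 4 arrays) of 8 genes over the early, mid, mid-late, late and very-late stages (x axis), with the early mean in blue and the very-late mean in red. The STAR mean is 13.37 in late and 9.15 in very-late glands, while the CCNB1 means step down and the CHIT1 means step up at each stage.

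The 4 very-late glands were not equally far from the early state. Over the 582 genes that rose at least 2-fold, the median SD was 0.550 among very-late and 0.206 among early glands, and over the 760 that fell it was 0.371 and 0.304. Very-late replicate 2 was the highest of its stage for 387 of the 582 risers and the lowest for 395 of the 760 fallers. Its array was also unusual in the array measures. Its mean mitochondrial signal was 6.39, against 12.59 to 13.10 on the other very-late arrays. Its GAPDH and beta-actin probe set differences, 0.83 and -0.20, and its own-stage correlation, 0.968, were the lowest of all arrays. Whether the array or the gland set replicate 2 apart was not tested. Replicate 3 was the lowest very-late gland for 349 risers and replicate 4 the highest for 291 fallers. Replicate 2 read lowest of the stage in FDXR (7.04, 5.39, 7.42 and 7.35), TM7SF2 (6.45, 4.72, 6.98 and 6.44) and ID4 (6.95, 5.10, 6.11 and 6.85), and replicate 4 highest in INHBA (4.57, 3.95, 4.83 and 6.41). STAR was lowest and nearly equal in replicates 1 and 2. Without replicate 2, 4895 probe sets rose and 4675 fell, close to the counts with all 4 glands, and without replicates 1 and 2 together 4351 and 3984.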

How the data were processed

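Total RNA of 20 corpora lutea was hybridised to an Affymetrix rhesus array, 1 gland per array and 4 per stage. The authors deposited log2 signals per probe set computed with RMA, per the submitters' processing notes, which give no version. RMA corrects background, quantile-normalises and summarises probes, so it equalises the arrays' distributions and compresses low signals, and a change shared by most transcripts would not show. The deposited log2 values were used as given: medians of the arrays lay between 3.88 and 3.98, and the number of arrays limits the precision.

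The arrays carry 52865 probe sets, and the 158 controls among them were not tested. In the platform annotation, updated to current symbols, 24956 had 1 gene symbol, 361 several and 27390 none, giving 14132 genes, of which 6375 had more than 1 probe set. Where a gene had several, the brightest on average over the 20 arrays stood for it. Of 744 such genes that changed at least 2-fold, 328 had all probe sets called the same way. In 27 another probe set was called the opposite way. IL1RL1 and LOXL2 passed with 1 of 4 probe sets, and ATF3 and MKI67 with 1 of 3.

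Stage means were fitted to all 20 arrays with limma 3.58.1 in R 4.3.3 (lmFit, eBayes), the very-late minus early contrast was tested two-sided, and p-values were adjusted by Benjamini-Hochberg over all 52707 probe sets. SE and intervals come from that fit, which pools the spread of all 20 arrays, and SD from the 4 arrays of a stage. Among called probe sets the median SD was 0.260 in very-late and 0.177 in early glands. The pooled SE can therefore understate the spread of the very-late glands. Array measures were compared by exact permutation over 70 splits. On simulated data for very-late against early with 50 changed probe sets per size, the fit called 84% of those changed 1.5-fold, 88% of those changed 2-fold, 96% for 4-fold and 100% for 8-fold changes. It also made 8 false calls. The simulation gave every stage the same spread and changed only 200 probe sets. In the data 60.5% of probe sets had a larger SD in very-late than in early glands, so these shares are not recovery rates for the real comparison.

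Members of the 42 gene lists (834 genes, 599 measured) and the comparison were chosen with earlier results of these data known. Genes named are the 15 largest rises and falls at least 2-fold with arrays not overlapping, up to 6 such members of each list per direction, and fixed genes. Other list members given with values were chosen after their values were seen. Alternatives covered the arrays fitted, dim probe sets, normalization, the variance prior, array weights, a replicate block, the mitochondrial split, thresholds, probe sets per gene and left-out arrays.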

Additional observations from a re-analysis of the deposited data

Results flagged for a closer look

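Among 346 groups of 4 arrays (173 named genes in 2 stages), 1 array stood apart from the other 3 in 20, by a gap of over 0.829 of the group's range. Chance gives about 1 in 20 groups, and 10 of the 20 were in each stage. In very-late glands, replicate 2 stood apart in 5 genes. It read 12.24 in CTSS, where the others read 11.23 to 11.31. It read 9.18 in CCR1 (others 6.36 to 6.54), 9.73 in APOA1 (11.29 to 11.46), 7.65 in TEK (8.46 to 8.57) and 7.18 in DKK3 (8.65 to 8.94). Very-late replicate 4 read 7.29 in CYP19A1 (others 5.79 to 5.99), 4.39 in CYP11B1 (3.56 to 3.63) and 6.95 in LOXL2 (7.48 to 7.58). Very-late replicate 1 read 12.58 in CHIT1 (others 12.98 to 13.03), and replicate 3 read 10.51 in COL1A1 (9.47 to 9.64).

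In early glands, replicate 1 read 9.39 in LGMN (others 9.16 to 9.19), 8.19 in NANOS1 (9.95 to 10.19) and 9.60 in IFI30 (8.79 to 8.90). Early replicate 2 read 8.04 in TNFAIP6 (others 9.16 to 9.31). Early replicate 3 read 6.02 in ATF3 (others 5.35 to 5.42), 8.16 in LYVE1 (8.55 to 8.61), 7.66 in STC1 (8.58 to 8.75) and 10.03 in POR (9.02 to 9.12). Early replicate 4 read 8.81 in TYROBP (others 9.05 to 9.06) and 6.13 in MX2 (5.61 to 5.65).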

How the results depend on the processing

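The counts of 4981 probe sets higher and 4852 lower stayed within 1.5 times under cyclic loess, median centring, array weights, a robust prior with a trend, omission of dim probe sets, and both treatments of the mitochondrial split. Fitting only the 8 arrays gave 2892 higher and 3286 lower, an adjusted p under 0.01 gave 3113 higher and 3334 lower, and a 2-fold minimum 1421 higher and 1537 lower. With 1 probe set per gene there were 1895 genes higher and 2607 lower, and after averaging each gene's probe sets 1951 and 2441. Leaving out 1 array gave 4172 to 4895 higher and 4267 to 4675 lower. Median centring left 42.2% of calls higher, against 50.7%. For very-late against late, with 3559 higher and 3703 lower, an adjusted p under 0.01 gave 2094 and 2279, a 2-fold minimum 1051 and 1279, and omission of very-late replicates 1 and 2 together 2384 and 2320.

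Same-numbered glands did not deviate together (correlations 0.0189, -0.181, -0.0636 and -0.098). So few correlations cannot decide whether the numbers pair the samples, and the labels state no pairing. With the replicate number as a block, 4857 probe sets were higher and 4739 lower.

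Of 171 named genes past the test, 10 missed it in the fit to 8 arrays (FZD4, LIF, NR4A2, CD55, DKK3, NR5A2, PRDX2, COL15A1, MMP2 and AADAC). After averaging probe sets, CCL8, NR4A2, IFIT2 and CFB missed it and 2 turned: POR differed by 0.14 and DKK3 by 0.42, where 3 of 4 POR probe sets and 3 of 6 of DKK3 rose. Within the arrays of high mitochondrial signal 7 missed it (CYP11B1, NR4A1, HPGD, ABCA1, EGR2, MMP2 and AADAC), with fewer arrays fitted. In the other cases the cause was not tested.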

Other observations

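Binding proteins and receptors of insulin-like growth factors fell in 8 of 14 measured genes and rose in 1 (4 fell without very-late replicates 1 and 2 together). IGFBP3, a carrier of the growth factors, read 8.15, 6.68, 8.17 and 7.36 in very-late glands and 9.02, 9.37, 9.40 and 10.62 in early glands and fell by 2.01 ± 0.37 (adjusted p = 0.000631). IGFBP2 and IGFBP6 fell by 1.33 ± 0.15 and 1.22 ± 0.29, STC1, a secreted glycoprotein listed with them, by 1.60 ± 0.33, and IGF2R, the clearing and lysosomal sorting receptor, rose by 1.40 ± 0.12 (adjusted p = 2.23e-07). The ligands IGF1 and IGF2 differed by -0.34 and -0.34 and did not pass. Shares near those of all genes, 17.0% lower and 11.9% higher, were seen for WNT genes, which fell in 4 of 19 (2 without very-late replicates 1 and 2 together) and 1 rose (0 without very-late replicate 3 or 4 or early replicate 2, 3 or 4). WNT5A, a ligand of the non-canonical branch, read 6.03, 5.06, 6.44 and 6.04 in very-late glands and 10.28, 9.94, 9.84 and 10.08 in early glands. It fell by 4.14 ± 0.31 with all 3 probe sets (adjusted p = 3.52e-08), and the groups were far apart. FZD4, a WNT receptor, fell by 1.07 ± 0.25 (adjusted p = 0.00428, and 0.0578 with the 8 arrays fitted alone). For DKK3 the probe sets disagree, with 3 of 6 higher and 2 lower.

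Among 13 genes of ovarian peptide signals 2 fell, near the 17.0% of all genes. NPR3, the clearance receptor of natriuretic peptides, read 6.86, 4.13, 4.76 and 6.20 in very-late glands, lowest in replicate 2, and 9.22, 9.66, 9.75 and 8.55 in early glands, a fall by 3.81 ± 0.44 (adjusted p = 4.55e-06). PTHLH, the parathyroid hormone-like peptide, fell by 2.20 ± 0.27 (adjusted p = 1.20e-05). Relaxin, RLN2, a hormone of the primate gland, read 11.19, 4.75, 11.94 and 12.55 in very-late glands and 7.88, 9.44, 4.94 and 6.57 in early glands. Very-late replicate 2 was the lowest of the 8 glands and the groups overlapped, and the difference of 2.90 had an adjusted p of 0.113. The 1 rise in this list was OXTR, the oxytocin receptor, by 0.20 ± 0.065, lost on leaving out very-late replicate 1, 3 or 4 or early replicate 1, 2 or 3. Glycolysis and hypoxia genes fell in 3 of 18, a share near the 17.0% of all genes, and in 8 without very-late replicate 2. GPI, the isomerase of the second glycolytic step, fell by 1.96 ± 0.22 (adjusted p = 4.43e-06), though 1 of its 3 probe sets passed, while LDHA and SLC2A1 differed by -0.11 and -0.16 and did not pass.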
